A study of Homo sapiens with 18 samples.

Results

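The genes described are 76 human genes of DNA replication and DNA repair, out of 14232 genes named on the arrays. They were chosen by name alone: MCM, ORC, GINS, RFC, PRIM, RAD, XRCC, FANC, MSH, ERCC and BRCA genes, the polymerase genes POLA, POLD, POLE, POLH, POLK and POLQ, the ligases LIG1, LIG3 and LIG4, and TP53BP1. The rule itself uses no measured value, but the genes were chosen with earlier results of these data known. The array gave 77 transcript clusters, its units of one transcribed region, that name a single one of these genes, and MCM9, with a pair of clusters, is represented by the brighter one. Another 20 clusters name a gene of these families together with other genes, MCM7, RAD50 and XRCC5 among them, and were not analysed here. By role the 76 genes comprise 6 of origin recognition, 12 of the MCM helicase and its GINS partner, 17 of primase, the replicative polymerases, the clamp loader and the replicative ligase, 4 of translesion synthesis and polymerase theta, 1 of mismatch repair, 7 of nucleotide excision repair, 5 of end joining and break signalling, 10 of homologous recombination, 7 of the Fanconi anaemia pathway and 2 of the checkpoint clamp. A remaining 5 match the name pattern but have other roles.

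RNA came from U251-MG, an established human astrocytoma cell line, and was hybridised to 18 exon arrays. The stressed groups were exposed to 500 µM arsenite, which causes oxidative stress, and the unstressed groups to DMSO, and RNA was taken 30 min later. In each condition 3 kinds of RNA were measured: total RNA of the lysate (input), RNA immunoprecipitated with an antibody to TIAR, a protein that some labels call Tial after its gene TIAL1, and RNA immunoprecipitated with an antibody to G3BP1. Each of the 6 groups holds 3 arrays labelled as biological replicates, and the comparisons ask which transcripts each protein holds and how that changes when granules form.

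DNA replication starts where the origin recognition complex loads the MCM helicase. GINS helps activate that helicase, primase lays down primers, and polymerases alpha, delta and epsilon copy the strands behind a sliding clamp that the RFC complex loads. Most of these genes are transcribed as cells enter S phase, many of them under E2F control. The repair genes act on damaged bases, mismatches, crosslinks and broken ends. TIAR and G3BP1 are RNA-binding proteins that collect in stress granules, cytoplasmic assemblies of mRNA stalled in translation. TIAR is known for binding U-rich and AU-rich sequence and G3BP1 as a scaffold of the granule, and a copurified mRNA need not be bound directly.

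Values are log2 signals, so equal differences mean equal ratios. Differences are given ± SE from a linear model of all 18 arrays (limma, 3 arrays per group), and a gene was called at an adjusted p under 0.05 (Benjamini-Hochberg over all 22011 transcript clusters). The p-values measure the spread between arrays, and the labels do not say whether the replicates were separate cultures. The array medians ran from 7.73 to 8.07. Replicate 1 of stressed input and replicate 3 of unstressed G3BP1 stood apart, with a mean correlation of 0.980 to the other arrays of their group, and counts are therefore also given without both. For settings other than the main fit, shares of all genes were counted only for the arsenite comparisons without both arrays. Other counts of members under such settings stand without an all-gene share. Over the 18 arrays the mean signal of the members ran from 5.91 for XRCC6 to 11.87 for RFC3, and 66 of the 76 lay above the median gene. Signals of different clusters depend on their probes and are not compared as amounts. An immunoprecipitate shows the composition of its RNA and not the yield of the antibody, no precipitation with a control antibody is among the 18 arrays, and in bulk samples fewer cells with a transcript cannot be told apart from less of it per cell. Of the glial markers, VIM (mean signal 12.97), CD44 and SOX9 were bright, GFAP (8.63) intermediate and S100B (4.92) and AQP4 (4.78) dim. Of the epithelial markers the keratins KRT8 (11.93) and KRT18 (10.58) were bright, and CDH1 (5.91) and EPCAM (3.41) dim. Among neuronal markers SYT1 (9.71) was bright, while SNAP25 (6.79), SYN1 (7.66) and GAP43 (7.72) lay below the median gene (8.18). Among myeloid markers CD68 (9.56) was bright, while CSF1R (7.30), AIF1 (6.04) and the leukocyte marker PTPRC (3.65) lay below it. The part of other cell types in the results was not tested.

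Replication and repair transcripts as a group were more abundant in the G3BP1 precipitates than in input, and less abundant in the TIAR than in the G3BP1 precipitates. In unstressed cells 35 of the 76 were higher and 11 lower with G3BP1 than in input, where 23.7% of all named genes were higher and 15.6% lower. The median difference of the members was 0.39, beside 0.04 for all genes. After arsenite 41 members were higher and 3 lower (35.3% and 9.90% of all genes), with a median of 0.53 beside 0.11. Among the 66 members and 7116 genes above the median gene, the share higher with G3BP1 was 43.9% against 34.6% unstressed, but 54.5% against 53.2% after arsenite, and the share lower 16.7% against 25.7% and 4.55% against 10.8%. Under arsenite the count of members higher with G3BP1 was therefore near that of genes of similar signal. Median centring of the arrays, which lowers the all-gene median of the stressed comparison from 0.11 to -0.06, gave 38 higher and 13 lower there, and quantile normalization 36 and 18. The members' medians there were 0.36 and 0.30, beside -0.06 and 0.07 for all genes. The counts were 50 and 11 unstressed and 40 and 14 stressed without both arrays that stand apart. The members' medians were then 0.59 and 0.36, beside 0.03 and 0.09 for all genes.

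With TIAR the members split. Unstressed, 12 were higher and 24 lower than in input (20.2% and 23.4% of all genes), with a median of -0.05 beside -0.03. Stressed, 22 were higher and 20 lower (24.4% and 22.9%), with a median of 0.18 beside -0.05. Among genes above the median signal, 34.8% of members and 36.6% of genes were lower unstressed, and 18.2% and 31.5% higher. Stressed, 30.3% of these members and 39.5% of these genes were higher, and 27.3% and 32.2% lower, with medians of 0.13 and 0.09. Median centring, which moves the all-gene median of the unstressed comparison from -0.03 to 0.14, changed that split to 19 higher and 21 lower, and quantile normalization to 20 and 23. Leaving out both arrays that stand apart gave 20 and 31 unstressed, and 20 and 25 stressed. The stressed median of the members was then -0.01, beside -0.03 for all genes.

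The precipitates were also compared directly, which uses no input array. In unstressed cells this gave the members' largest median difference among the 6 comparisons of fractions. Unstressed, 13 members were higher and 44 lower with TIAR than with G3BP1 (19.2% and 30.2% of all genes), and the median was -0.69 beside -0.07. Stressed, 14 were higher and 37 lower (14.4% and 32.4%), with a median of -0.48 beside -0.08. Among genes above the median signal, 57.6% of members and 43.2% of genes were lower with TIAR unstressed, and 53.0% and 46.8% stressed. The all-gene median of these comparisons is positive after median centring (0.11 and 0.14), whereas that of the members stayed negative (-0.50 and -0.25). The split of calls became 17 and 41 unstressed and 20 and 32 stressed with centring, and 20 and 41 and 20 and 33 with quantile normalization. With both arrays that stand apart left out it was 12 and 52, and 19 and 46. The members' medians were then -0.86 and -0.48, beside -0.05 and -0.08 for all genes.

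**Figure D1:**
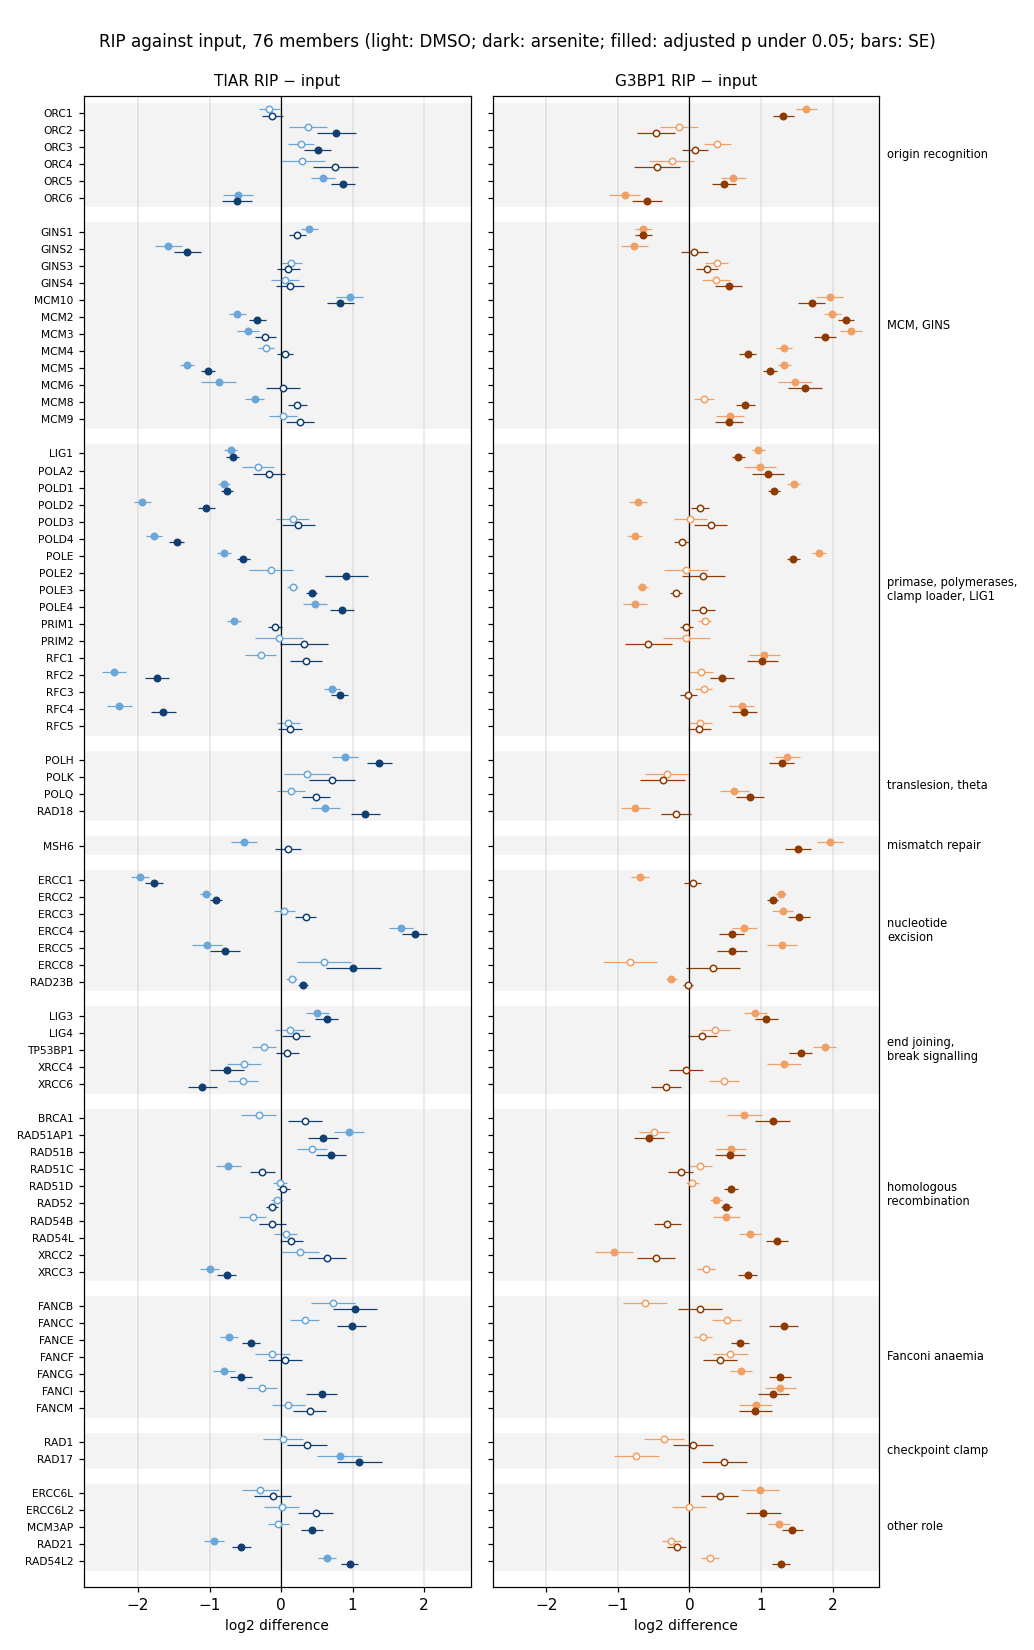
Log2 difference (x axis) between each precipitate and input for the 76 genes, in rows grouped by role; light points are DMSO and dark points arsenite, filled points have an adjusted p under 0.05 and bars show the SE. The MCM genes lie to the right in the G3BP1 panel, up to 2.25 for MCM3, and RFC2 and RFC4 lie farthest left in the TIAR panel, at -2.34 and -2.26 in unstressed cells.

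Among the 6 origin recognition genes, ORC1 differed most from input with G3BP1. ORC1, the large ATPase subunit whose level varies through the cell cycle, read 9.11, 9.14 and 9.11 in unstressed input, 9.08, 8.92 and 8.85 with TIAR and 10.92, 10.92 and 10.40 with G3BP1. All 3 arrays with G3BP1 lay above every input and TIAR array. The difference from input was 1.63 ± 0.15 (adjusted p = 4.2e-07) and that between TIAR and G3BP1 -1.80 ± 0.15. ORC6, the smallest subunit, was lower than input with both proteins in both conditions, by -0.60 ± 0.21 with TIAR and -0.91 ± 0.21 with G3BP1 unstressed. ORC5 was higher than input in all of these comparisons, from 0.48 to 0.87. Its call with G3BP1 after arsenite failed under 8 of 27 alternative settings, and the difference was 0.22 (adjusted p = 0.17) without replicate 1 of stressed input. ORC2 and ORC4, other ATPase-fold subunits of the ring, did not pass the test between the unstressed precipitates (0.52 ± 0.27 and 0.55 ± 0.32). In stressed cells both were higher with TIAR than with G3BP1, by 1.24 ± 0.27 and 1.21 ± 0.32. ORC3 passed the test in 1 of the 4 comparisons with input, higher with TIAR after arsenite at 0.51 ± 0.18, which became 0.24 (adjusted p = 0.18) without replicate 1 of stressed input. Without both arrays that stand apart, stressed G3BP1 against input held 1 origin gene higher (ORC1) and 3 lower (ORC2, ORC4 and ORC6).

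The MCM2 to MCM6 transcripts shared a pattern with G3BP1. These genes encode subunits of the replicative helicase, and all 5 were higher with G3BP1 than in input in both conditions. MCM3 read 9.91, 9.88 and 9.84 in unstressed input, 9.54, 9.42 and 9.29 with TIAR and 12.19, 12.24 and 11.96 with G3BP1. The G3BP1 arrays lay above, and the TIAR arrays below, every input array. In stressed cells MCM3 read 9.53, 10.18 and 10.22 in input, 9.91, 9.56 and 9.80 with TIAR and 11.89, 11.91 and 11.80 with G3BP1. The difference between G3BP1 and input was 2.25 ± 0.15 unstressed, a 4.77-fold difference (adjusted p = 2.6e-08), and 1.89 ± 0.15 stressed. MCM2 read 9.41, 9.40 and 9.30 in unstressed input, 8.84, 8.82 and 8.61 with TIAR and 11.56, 11.38 and 11.15 with G3BP1, and again no G3BP1 array overlapped another group. Its difference from input was 2.00 ± 0.12 with G3BP1 (adjusted p = 6.7e-09) and -0.61 ± 0.12 with TIAR. After arsenite it read 9.20, 9.62 and 9.60 in input, 9.14, 9.18 and 9.12 with TIAR and 11.64, 11.66 and 11.68 with G3BP1, and the G3BP1 difference was 2.19 ± 0.12.

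MCM5 and MCM6 were also higher with G3BP1 and lower with TIAR than in unstressed input. MCM5 read 10.40, 10.43 and 10.37 in unstressed input, 9.20, 8.99 and 9.06 with TIAR and 11.85, 11.82 and 11.51 with G3BP1. The 3 groups did not overlap, with TIAR lowest and G3BP1 highest, and the differences from input were -1.32 ± 0.10 and 1.33 ± 0.10. MCM6 lay 1.48 ± 0.24 above input with G3BP1 and -0.87 ± 0.24 from it with TIAR. MCM4 was 1.32 ± 0.11 above input with G3BP1, while its TIAR difference of -0.20 ± 0.11 did not pass the test. Between the unstressed precipitates TIAR was lower for all 5, from -1.53 for MCM4 to -2.71 for MCM3. In stressed cells the same differences ran from -0.75 to -2.52 and were called for all 5.

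Outside this set the helicase genes differed. MCM10, a replication initiation factor that is no subunit of the helicase ring, was higher than input with both proteins: 0.96 ± 0.19 with TIAR and 1.96 ± 0.19 with G3BP1 unstressed. MCM8 and MCM9, a related pair that acts in recombination repair, showed smaller differences, none above 0.78 in size against input. MCM9 was dim, with a mean signal of 7.35. GINS2 read 12.39, 12.26 and 12.31 in unstressed input, 10.85, 10.60 and 10.79 with TIAR and 11.85, 11.90 and 10.91 with G3BP1, so both precipitates lay below input without overlap. The differences were -1.58 ± 0.19 and -0.77 ± 0.19. Its partner GINS1 went the other way with TIAR, at 0.40 ± 0.12, and was lower than input with G3BP1, at -0.65 ± 0.12. GINS3 was called in no comparison and GINS4 only in stressed G3BP1 against input, at 0.55 ± 0.19. In all, 7 of the 12 genes of this role were higher and 2 lower with G3BP1 than in unstressed input (23.7% and 15.6% of all genes), and 9 were lower with TIAR than with G3BP1 (30.2% of all genes). These counts were 9, 2 and 11 without both arrays that stand apart.

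**Figure D2:**
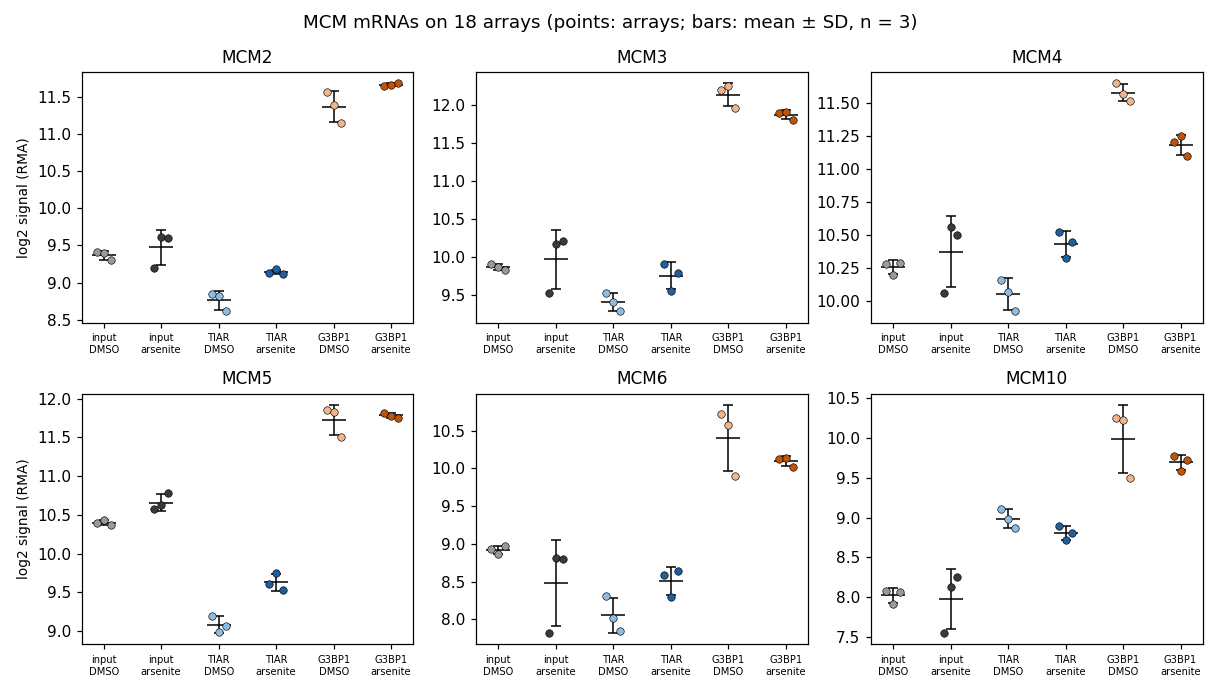
Log2 signal (y axis) of 6 MCM genes on each of the 18 arrays, by precipitate and treatment (x axis); points are arrays and bars the mean ± SD of 3. For MCM2, MCM3 and MCM5 the G3BP1 arrays sit above all input and TIAR arrays.

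The start regions of MCM2, MCM3 and MCM6 are shown because these genes were all higher with G3BP1 than in input, in both conditions, and carry a sequence feature that the choice by name did not use. MCM4 and MCM5 were higher with G3BP1 too, but had no start region among the sequences used and were not searched. The E2F-type words TTTCCCGC, TTTCGCGC, TTTGCCGC and TTTGGCGC were searched on both strands, in the 250 bases before and 50 after the start of each gene (RefSeq, GRCh38.p14). They occurred in 18 of the 69 members with a start region in the table (26.1%), beside 908 of 27305 genes (3.33%). The latter are all genes with a start region and were not limited to genes named on the arrays or of similar signal. The share was 7 of 9 for the MCM and GINS genes and 6 of 16 for primase, polymerases and clamp loader, and 0 of 7 for nucleotide excision repair. Capitals mark the words, and TTTCGCGC overlaps its own reverse complement in MCM2 and TTTGGCGC overlaps a reverse TTTCGCGC at each MCM6 site. The sequences run 5′ to 3′ on the gene's strand, at chr3:127598161-127598460, plus strand for MCM2, chr6:52284693-52284992, minus strand for MCM3 and chr2:135876394-135876693, minus strand for MCM6. A match describes these letters and is not a bound site.
MCM2: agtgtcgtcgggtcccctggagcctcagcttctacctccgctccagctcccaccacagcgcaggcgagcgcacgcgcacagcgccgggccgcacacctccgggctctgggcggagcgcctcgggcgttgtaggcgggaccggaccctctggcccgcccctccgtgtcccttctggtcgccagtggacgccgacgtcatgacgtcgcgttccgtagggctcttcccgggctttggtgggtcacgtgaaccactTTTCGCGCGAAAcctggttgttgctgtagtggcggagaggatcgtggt
MCM3: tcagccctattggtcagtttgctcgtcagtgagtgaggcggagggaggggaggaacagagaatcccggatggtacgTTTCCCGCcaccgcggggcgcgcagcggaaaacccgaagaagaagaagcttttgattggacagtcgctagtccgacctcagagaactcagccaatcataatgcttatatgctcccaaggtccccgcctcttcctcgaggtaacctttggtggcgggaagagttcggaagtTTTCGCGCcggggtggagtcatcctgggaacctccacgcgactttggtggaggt
MCM6: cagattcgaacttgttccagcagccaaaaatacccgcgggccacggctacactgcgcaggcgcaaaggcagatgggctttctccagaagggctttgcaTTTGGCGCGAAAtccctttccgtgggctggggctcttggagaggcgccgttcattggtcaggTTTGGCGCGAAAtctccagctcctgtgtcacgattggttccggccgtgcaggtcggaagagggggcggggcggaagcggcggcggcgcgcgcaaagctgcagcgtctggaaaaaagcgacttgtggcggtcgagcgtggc

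MCM2 held its overlapping pair just after the start site, MCM3 a word well upstream and another at the start site, and MCM6 a pair of repeated composite sites upstream. With G3BP1 against unstressed input the median was 0.44 for the 18 members with a word and 0.36 for the 51 without. For TIAR against G3BP1 it was -0.69 and -0.54.

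Subunits of a single replicative polymerase differed in direction. The large catalytic subunits POLD1 of polymerase delta and POLE of polymerase epsilon were higher with G3BP1 and lower with TIAR than in input, in both conditions. POLE read 8.71, 8.64 and 8.59 in unstressed input, 7.88, 7.83 and 7.85 with TIAR and 10.59, 10.55 and 10.24 with G3BP1. The 3 groups did not overlap, and the differences from input were -0.80 ± 0.09 and 1.81 ± 0.09 (adjusted p = 1.9e-09). POLD1 read 9.06, 8.98 and 9.01 in unstressed input, 8.18, 8.26 and 8.23 with TIAR and 10.57, 10.58 and 10.26 with G3BP1, again without overlap. Its differences were -0.79 ± 0.09 and 1.45 ± 0.09.

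The small delta subunits were lower than unstressed input with both proteins. POLD2 read 12.34, 12.34 and 12.26 in unstressed input, 10.53, 10.36 and 10.24 with TIAR and 11.62, 11.78 and 11.40 with G3BP1, with every input array above every precipitate array. The differences were -1.94 ± 0.12 and -0.72 ± 0.12 (adjusted p = 1.1e-08 and 2.3e-04). POLD4 gave -1.78 ± 0.11 and -0.77 ± 0.11. After arsenite neither passed the test against input with G3BP1 (0.14 ± 0.12 and -0.11 ± 0.11), whereas both were lower than input with TIAR, at -1.04 ± 0.12 and -1.46 ± 0.11. POLD3, the remaining delta subunit, was called in no comparison, with differences from -0.31 to 0.30.

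The histone-fold subunits POLE3 and POLE4 of polymerase epsilon showed another arrangement, higher with TIAR than with G3BP1. POLE4 read 10.96, 10.97 and 10.93 in unstressed input, 11.42, 11.61 and 11.24 with TIAR and 10.37, 10.34 and 9.87 with G3BP1. TIAR lay above and G3BP1 below input without overlap, by 0.47 ± 0.17 and -0.76 ± 0.17. POLE3 was 0.82 ± 0.08 higher with TIAR than with G3BP1 unstressed and 0.61 ± 0.08 stressed. POLE2 was called once among the comparisons of the precipitates and input, higher with TIAR than in stressed input at 0.91 ± 0.30.

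The clamp loader transcripts RFC2 and RFC4 were the members farthest below input with TIAR in unstressed cells. RFC2 read 11.04, 11.08 and 11.07 in unstressed input, 8.91, 8.57 and 8.69 with TIAR and 11.48, 11.42 and 10.75 with G3BP1. RFC4 read 11.13, 11.06 and 11.14 in that input, 9.15, 8.64 and 8.74 with TIAR and 11.91, 11.89 and 11.71 with G3BP1. For both, every TIAR array lay below every input and G3BP1 array. The differences were -2.34 ± 0.17 and -2.26 ± 0.17 unstressed, and -1.74 ± 0.17 and -1.65 ± 0.17 stressed, where ERCC1 was the lowest member at -1.78. RFC3 was higher with TIAR than in input instead, at 0.71 ± 0.12 and 0.82 ± 0.12, and RFC5 was called in no comparison, with every difference between -0.05 and 0.15. RFC1, the large subunit, was 1.05 ± 0.22 above unstressed input with G3BP1 and not called with TIAR, at -0.28 ± 0.22.

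LIG1, the ligase that joins Okazaki fragments, was lower with TIAR (-0.70 ± 0.09) and higher with G3BP1 (0.96 ± 0.09) than in unstressed input. POLA2, the accessory subunit of polymerase alpha, was higher with G3BP1 (0.99 ± 0.22) and not called with TIAR (-0.32 ± 0.22). PRIM1, the catalytic primase subunit, was lower than unstressed input with TIAR (-0.65 ± 0.09) and not called with G3BP1 (0.21 ± 0.09). PRIM2, its regulatory partner, was called only as higher with TIAR than with G3BP1 after arsenite, at 0.89 ± 0.33. Of the 17 genes of this role, 2 were higher and 8 lower with TIAR than in unstressed input (20.2% and 23.4% of all genes), and 6 higher and 4 lower with G3BP1 (23.7% and 15.6%). The G3BP1 counts were 10 and 4 without both arrays that stand apart.

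**Figure D3:**
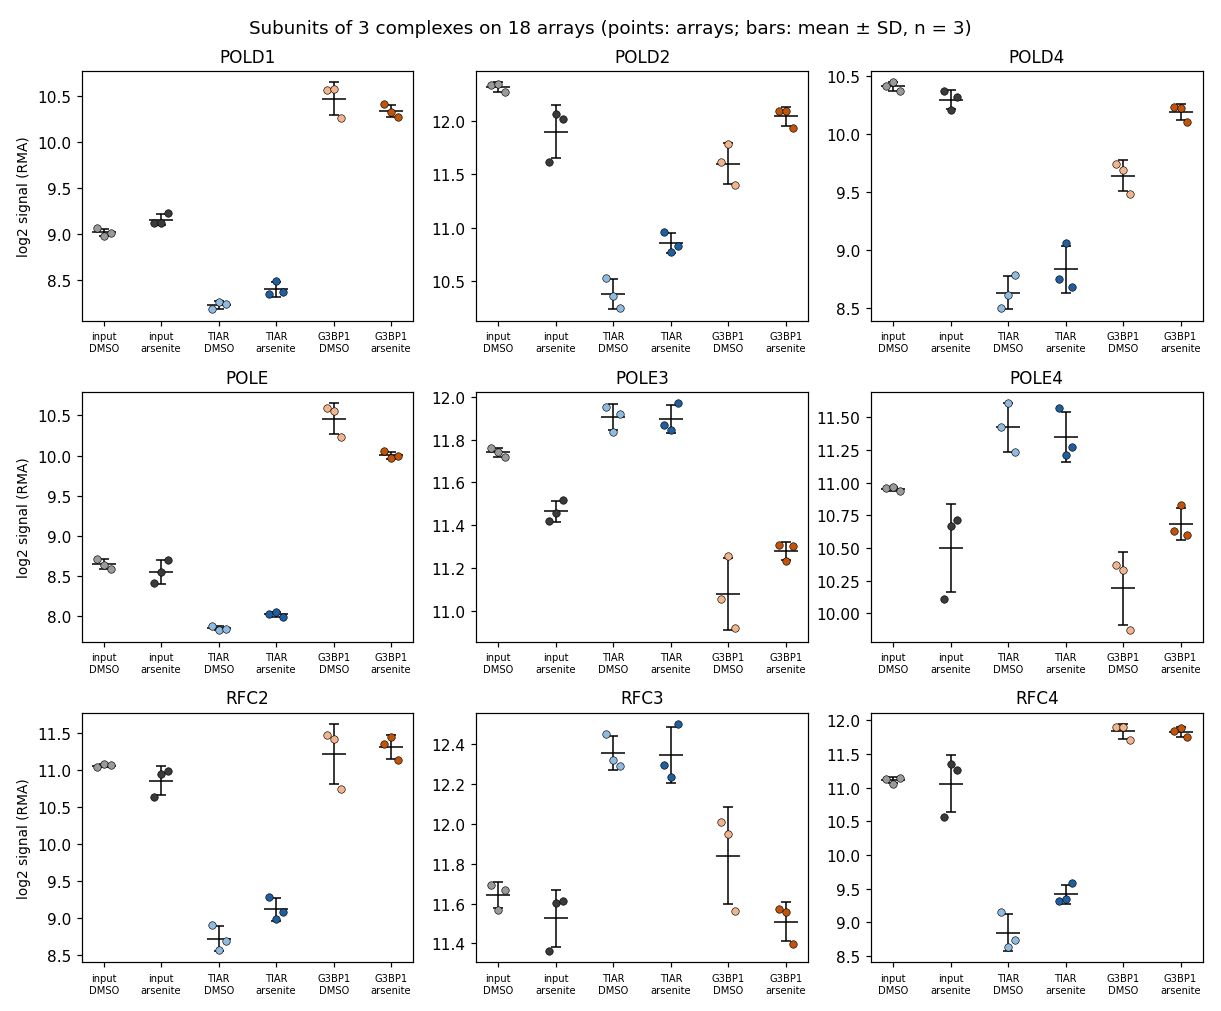
Log2 signal (y axis) of subunits of polymerase delta, polymerase epsilon and the clamp loader on each of the 18 arrays, by precipitate and treatment (x axis); points are arrays and bars the mean ± SD of 3. RFC2 and RFC4 lie below input with TIAR while RFC3 does not, and POLE lies above unstressed input with G3BP1 where POLE3 and POLE4 lie below it.

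POLH, the polymerase that copies past ultraviolet damage, was higher than input with both proteins, at 0.89 ± 0.18 and 1.37 ± 0.18 unstressed and 1.37 ± 0.18 and 1.29 ± 0.18 stressed. RAD18, the ligase that marks stalled clamps for translesion synthesis, was higher with TIAR and lower with G3BP1 than in unstressed input. Its arrays read 9.47, 9.52 and 9.41 in input, 10.22, 10.14 and 9.88 with TIAR and 8.81, 8.93 and 8.37 with G3BP1, and the precipitates did not overlap. Between them the difference was 1.37 ± 0.20 unstressed and 1.37 ± 0.20 stressed. POLK, another translesion polymerase, was called only between the stressed precipitates, at 1.09 ± 0.32. POLQ, which joins ends by microhomology, was higher than input with G3BP1, at 0.63 ± 0.20 and 0.85 ± 0.20.

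MSH6, a mismatch recognition protein, showed the same order of groups as MCM3. It read 8.38, 8.32 and 8.29 in unstressed input, 7.94, 7.84 and 7.64 with TIAR and 10.51, 10.37 and 10.00 with G3BP1. The G3BP1 arrays lay above all others and the difference from input was 1.97 ± 0.18, a 3.91-fold difference (adjusted p = 5.9e-07). With TIAR it was -0.52 ± 0.18, and between the precipitates -2.49 ± 0.18.

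Nucleotide excision repair genes split in both precipitates. ERCC4 and ERCC1 encode the subunits of a single nuclease that cuts on the 5′ side of the damage, and they differed from input in opposite directions with TIAR. ERCC4 read 9.32, 9.13 and 9.15 in unstressed input and 10.92, 10.90 and 10.83 with TIAR, a difference of 1.68 ± 0.17 and the highest of the 76 members in that comparison. ERCC1 read 10.65, 10.67 and 10.59 in that input and 8.69, 8.58 and 8.74 with TIAR, a difference of -1.97 ± 0.12. With G3BP1 they stood at 0.77 ± 0.17 and -0.69 ± 0.12, so that their order was the same in both precipitates. ERCC2 and ERCC3, the helicases of the TFIIH complex, were both higher with G3BP1, at 1.27 ± 0.08 and 1.30 ± 0.15. With TIAR ERCC2 was lower, at -1.05 ± 0.08, and ERCC3 was not called, at 0.04 ± 0.15. ERCC5, the nuclease of the 3′ side, gave -1.03 ± 0.21 and 1.29 ± 0.21, but its mean signal of 6.37 was dim. ERCC8, the adaptor that brings a ubiquitin ligase to stalled transcription, was 1.43 ± 0.38 higher with TIAR than with G3BP1. RAD23B, a damage recognition cofactor, stood at -0.25 ± 0.07 with G3BP1.

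In end joining, TP53BP1 and XRCC4 were both much higher with G3BP1 in unstressed cells. TP53BP1, a chromatin adaptor at broken ends, read 9.31, 9.20 and 9.23 in unstressed input, 9.17, 8.97 and 8.88 with TIAR and 11.40, 11.28 and 10.73 with G3BP1. Its G3BP1 arrays lay apart from the other groups, 1.89 ± 0.16 above input (adjusted p = 2.8e-07). XRCC4, the scaffold of the end-joining ligase LIG4, read 8.85, 8.62 and 8.74 in unstressed input, 8.49, 8.25 and 7.91 with TIAR and 10.23, 10.22 and 9.72 with G3BP1, 1.32 ± 0.24 above input. LIG3 was higher than input with both proteins, at 0.51 ± 0.16 and 0.92 ± 0.16. LIG4 was called in no comparison. XRCC6, a Ku subunit, was -1.10 ± 0.21 from stressed input with TIAR, but its mean signal was dim, the lowest of the members.

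Homologous recombination genes again lay on both sides. With G3BP1, RAD54L, a motor protein of strand exchange, was 0.85 ± 0.16 above unstressed input and BRCA1, the tumour suppressor that promotes end resection, 0.76 ± 0.24. XRCC2 was -1.05 ± 0.26 from it, the lowest member of that comparison. XRCC3 was lower with TIAR than with G3BP1, at -1.23 ± 0.13, as was RAD51C, at -0.88 ± 0.17, and both were lower than unstressed input with TIAR. RAD51AP1 read 9.07, 8.70 and 8.95 in unstressed input, 10.14, 9.75 and 9.70 with TIAR and 8.68, 8.70 and 7.87 with G3BP1. TIAR lay above both other groups without overlap, by 0.96 ± 0.21 against input and 1.45 ± 0.21 against G3BP1. RAD52 showed small differences throughout, at most 0.52 against input, and RAD51B, with a mean signal of 7.20, was 0.58 ± 0.21 above input with G3BP1. RAD54B stood -0.91 ± 0.19 from G3BP1 with TIAR in unstressed cells and was not called after arsenite, at 0.19 ± 0.19. RAD51D was called against input only with G3BP1 after arsenite, at 0.58 ± 0.09.

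Of the Fanconi anaemia genes, which handle DNA crosslinks, FANCI, a subunit of the ubiquitinated clamp, had the highest mean signal (10.80) and FANCM, the anchoring translocase, the lowest. FANCI was 1.27 ± 0.21 and FANCM 0.93 ± 0.23 above unstressed input with G3BP1. FANCG and FANCE, of the core ligase complex, were lower with TIAR, at -0.80 ± 0.16 and -0.73 ± 0.12, and between the unstressed precipitates FANCG stood at -1.52 ± 0.16. FANCB, of the same core complex, was instead 1.35 ± 0.31 higher with TIAR than with G3BP1. FANCC was called higher than input only after arsenite, at 0.99 ± 0.20 with TIAR and 1.32 ± 0.20 with G3BP1. Both values share the stressed input, where FANCC fell after arsenite, and its arsenite change was called in neither precipitate. FANCF was called only between the unstressed precipitates, at -0.69 ± 0.24, where its groups overlapped. RAD17, the loader of the checkpoint clamp, was 0.82 ± 0.32 above unstressed input with TIAR and 1.57 ± 0.32 above G3BP1. RAD1, a clamp subunit, was called in no comparison.

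The 5 genes that only share the name pattern include MCM3AP, a nuclear mRNA export factor, which was 1.25 ± 0.15 above unstressed input with G3BP1. RAD21, a cohesin subunit, was lower with TIAR, at -0.94 ± 0.13. RAD54L2, a helicase of the SNF2 family, was 0.65 ± 0.13 above input with TIAR. ERCC6L, a mitotic translocase, and ERCC6L2 were higher with G3BP1 in 1 condition each, ERCC6L at 0.98 ± 0.26 unstressed with overlapping groups and ERCC6L2 at 1.03 ± 0.24 stressed. ERCC6L2 fell in input after arsenite, and its arsenite change with G3BP1 was not called.

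The comparisons of TIAR and of G3BP1 with input share the input arrays, so a low or high input value enters both. Under all alternative settings tried, 26 of the 36 calls of unstressed TIAR against input held, as did 37 of the 46 for G3BP1, and 49 of the 57 between the precipitates. After arsenite 27 of 42, 34 of 44 and 43 of 51 held. Among the calls given above by value, RAD17 with TIAR against unstressed input failed under 12 of 27 alternatives, ORC5 under 8, MSH6 with TIAR under 7, and ORC3, FANCF, PRIM2 and RAD51B (unstressed, with G3BP1) under 6 each (of 26 for FANCF and RAD51B).

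Arsenite changed few of the members' transcripts within a fraction. In total RNA, 0 members rose and 10 fell, beside 2.08% and 13.5% of all genes (limma; at an unadjusted p under 0.05, 2 were higher). In the TIAR precipitate 6 rose and 3 fell, beside 6.15% and 7.15%. In the G3BP1 precipitate 3 rose and 7 fell, beside 11.9% and 4.12%. The members' medians were -0.20 in input, 0.01 with TIAR and -0.14 with G3BP1, where those of all genes were -0.06, -0.02 and 0.01. Among the 66 members and 7116 genes above the median gene, both medians in input were -0.20. Of these, 15.2% of members and 24% of genes fell in input. In the G3BP1 precipitate 4.55% and 21.1% rose and 9.09% and 7.28% fell, with medians of -0.13 and 0.10. In the TIAR precipitate 9.09% and 11.5% rose and 4.55% and 11.9% fell. The input median of the members was therefore near that of genes of similar signal. Each of the counts of members called depended on single arrays. For G3BP1 the 10 calls became 26 without replicate 3 of unstressed G3BP1, 6 and 5 without replicates 1 and 2 of stressed G3BP1, and 43 without both arrays that stand apart. For input the 10 became 23 without replicate 3 of unstressed G3BP1, 6 without replicate 1 of stressed input, and 5 and 6 without replicates 1 and 3 of unstressed input. For TIAR the 9 became 16 without replicate 1 of stressed input or replicate 3 of unstressed G3BP1, 4 without replicate 1 or replicate 2 of stressed TIAR, and 2 and 5 without replicates 2 and 3 of unstressed TIAR.

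Without both arrays that stand apart, the G3BP1 comparison changed most. It then held 3 members that rose and 40 that fell (52.6% of members), beside 12.5% and 15.7% of all genes. The median was -0.34 beside 0.01, and 13 of the 76 members lay above 0. By role the falls were 6 of 12 MCM and GINS genes, 8 of 17 of primase, polymerases and clamp loader, 5 of 10 of homologous recombination, 4 of 5 of end joining and 4 of 7 of nucleotide excision repair. They were also 3 of 6 of origin recognition, 3 of 7 of Fanconi anaemia, 2 of 4 of translesion synthesis, 1 of 1 of mismatch repair and 0 of 2 of the checkpoint clamp. Of the genes that only share the name pattern, 4 of 5 fell. In the same setting TIAR gave 16 that rose and 9 that fell (12.1% and 14.0% of all genes), and input 9 and 13 (5.94% and 16.4%). Replicate 3 of unstressed G3BP1 had a members' median of 9.58, beside 10.11 and 10.12 in its replicates. Quantile normalization of all 18 arrays gave 5 rises and 22 falls with G3BP1, and 9 and 11 in input, and median centring 3 and 12 in input. With quantile normalization the medians with G3BP1 were -0.24 for members and -0.05 for all genes, and in input -0.04 and 0.01.

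**Figure D4:**
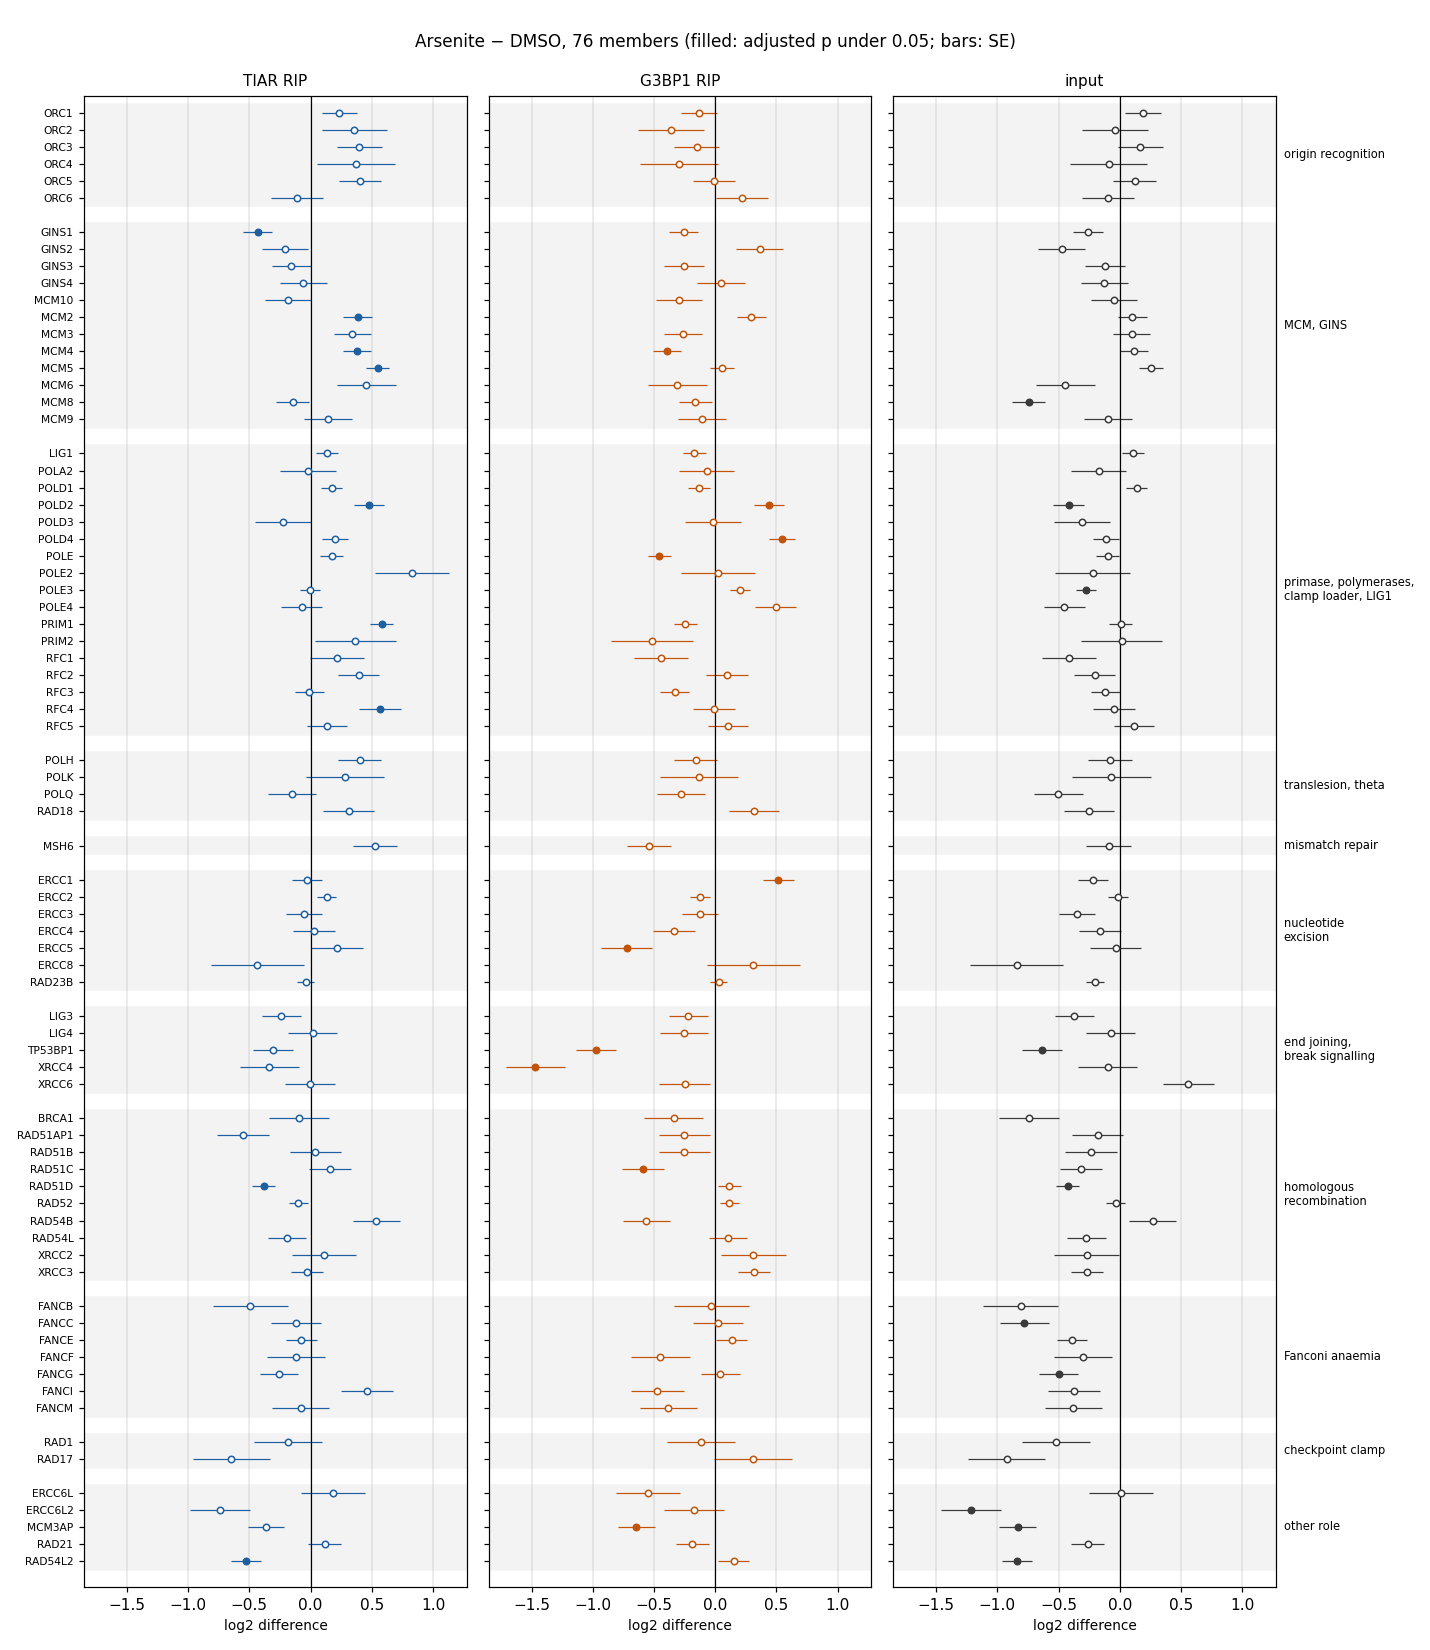
Log2 difference between arsenite and DMSO (x axis) for the 76 genes, in rows grouped by role, with a panel each for TIAR, G3BP1 and input; filled points have an adjusted p under 0.05 and bars show the SE. XRCC4 and TP53BP1 lie farthest left with G3BP1, at -1.47 and -0.97, and PRIM1 is among the filled points to the right with TIAR, at 0.58.

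XRCC4 fell with G3BP1 after arsenite, the largest change of the members there. It read 10.23, 10.22 and 9.72 with G3BP1 unstressed and 8.71, 8.62 and 8.45 stressed, with no overlap. The change was -1.47 ± 0.24 (adjusted p = 7.7e-04) and was called under every alternative setting tried. Stressed G3BP1 then differed from stressed input by -0.05 ± 0.24, which did not pass the test. In input XRCC4 read 8.85, 8.62 and 8.74 unstressed and 8.03, 9.05 and 8.83 stressed, with overlapping groups. That change of -0.10 ± 0.24 was not called and became 0.20 ± 0.18 (adjusted p = 0.51) without both arrays that stand apart. With TIAR it read 8.49, 8.25 and 7.91 and 7.83, 7.56 and 8.24, also overlapping.

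TP53BP1 fell with G3BP1 as well, from 11.40, 11.28 and 10.73 to 10.29, 10.10 and 10.11. The groups did not overlap, and the change of -0.97 ± 0.16 (adjusted p = 8.9e-04) was called under every alternative setting. It also fell in input, with a change of -0.63 ± 0.16 from 9.31, 9.20 and 9.23 to 8.30, 8.69 and 8.84. The input change was, without both arrays that stand apart, -0.48 ± 0.10 (adjusted p = 0.005), and without replicate 1 of stressed input alone it was -0.48 (adjusted p = 0.075). In the main fit the fall with G3BP1 beyond that of input, -0.34 ± 0.23, did not pass the test. That result depends on the setting for genes of this role. Without both arrays that stand apart, 4 of the 5 genes of end joining and break signalling were lower in that contrast. Their median was -0.70, beside 0.05 for all genes.

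PRIM1 rose with TIAR after arsenite. It read 9.50, 9.39 and 9.50 unstressed and 10.03, 9.97 and 10.14 stressed, without overlap, and changed by 0.58 ± 0.09 (adjusted p = 8.3e-04). Input held 10.14, 10.11 and 10.11 unstressed and 9.87, 10.28 and 10.24 stressed, a difference of 0.01 ± 0.09, and G3BP1 10.35, 10.34 and 10.30 and 10.13, 10.12 and 10.01. After arsenite TIAR differed from input by -0.08 ± 0.09, which did not pass the test. The other 5 rises with TIAR were of helicase, clamp loader and polymerase genes. MCM5 rose by 0.55 ± 0.10, MCM2 by 0.38 ± 0.12 and MCM4 by 0.38 ± 0.11, RFC4 by 0.57 ± 0.17 and POLD2 by 0.47 ± 0.12. PRIM1 and MCM5 were called under every alternative setting, while the calls of MCM2, MCM4 and RFC4 each failed under 10 or more of 27. With TIAR, RAD54L2 changed by -0.53 ± 0.13, GINS1 by -0.43 ± 0.12 and RAD51D by -0.38 ± 0.09, all downward. Leaving out 1 of the TIAR arrays removed the call of each of these 3: for RAD54L2 replicate 2 of either group, for RAD51D also replicate 1 of unstressed TIAR, and for GINS1 replicates 1 and 2 of either group, with values from -0.46 to -0.36. The call of POLD2 was absent without replicate 1 of stressed TIAR (0.42 (adjusted p = 0.088)) and without replicates 2 (0.47 (adjusted p = 0.066)) and 3 (0.41 (adjusted p = 0.093)) of unstressed TIAR.

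The 3 members that rose with G3BP1 had each been lower than input with G3BP1 unstressed, and both comparisons share the unstressed G3BP1 arrays. POLD4 changed by 0.55 ± 0.11, ERCC1 by 0.52 ± 0.12 and POLD2 by 0.44 ± 0.12. POLD2 read 11.62, 11.78 and 11.40 unstressed and 12.09, 12.09 and 11.93 stressed with G3BP1, 10.53, 10.36 and 10.24 and 10.95, 10.77 and 10.83 with TIAR, and 12.34, 12.34 and 12.26 and 11.61, 12.07 and 12.01 in input. It rose in both precipitates and fell in input, with a change of -0.42 ± 0.12. The call of ERCC1 was absent without replicate 2 of stressed G3BP1, at 0.47 (adjusted p = 0.053). That of POLD2 with G3BP1 was absent without replicate 1 (0.42 (adjusted p = 0.091)) or 2 (0.41 (adjusted p = 0.089)) of stressed G3BP1 and replicate 1 (0.45 (adjusted p = 0.053)) or 3 (0.34 (adjusted p = 0.08)) of unstressed G3BP1. Besides XRCC4 and TP53BP1, the G3BP1 falls were ERCC5 (-0.72, with overlapping groups), MCM3AP (-0.64), RAD51C (-0.59), POLE (-0.46) and MCM4 (-0.39). ERCC5, RAD51C and MCM4 each failed under 6 or 7 of the alternatives, and fitting the compared groups alone left only XRCC4 and TP53BP1 of the 10.

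In total RNA the falls were led by genes outside replication proper. ERCC6L2 read 9.25, 9.07 and 9.10 unstressed and 7.45, 8.10 and 8.24 stressed, a change of -1.21 ± 0.24 (adjusted p = 0.004) with no overlap. RAD54L2 changed by -0.84 ± 0.13 and MCM3AP by -0.83 ± 0.15. These 3 were called under every alternative setting. FANCC (-0.78), MCM8 (-0.74), FANCG (-0.50), RAD51D (-0.43) and POLE3 (-0.27) fell too. FANCG failed under 16 and POLE3 under 9 of the 27 alternatives, and FANCC, POLD2 and TP53BP1 each failed without replicate 1 of stressed or of unstressed input, among others. MCM2 to MCM6 were not called in input, with changes from -0.45 for MCM6 to 0.26 for MCM5. Without both arrays that stand apart MCM6 changed by -0.12 ± 0.13 (adjusted p = 0.58), and 9 members rose in input: MCM2, MCM3, MCM4, MCM5, ORC1, ORC3, ORC5, RAD54B and the dim XRCC6.

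**Figure D5:**
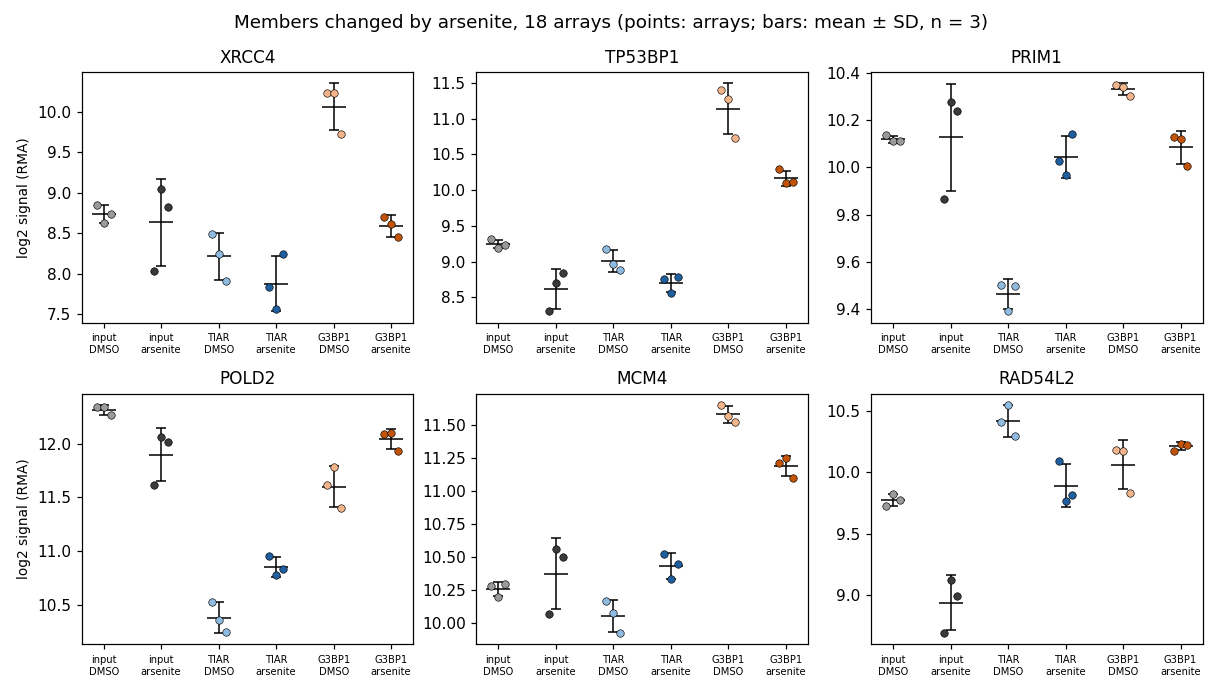
Log2 signal (y axis) of 6 genes called in an arsenite comparison, on each of the 18 arrays, by precipitate and treatment (x axis); points are arrays and bars the mean ± SD of 3. The 3 stressed G3BP1 arrays of XRCC4 lie below the unstressed ones, and the stressed TIAR arrays of PRIM1 lie above the unstressed ones.

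Interaction contrasts asked whether a stress change in a precipitate differed from that in input, or between the precipitates. With TIAR beyond input, 1 member was called higher and 0 lower (0.562% and 0.0422% of all genes; 0 lower at an unadjusted p under 0.05 in limma): POLD2, at 0.89 ± 0.17 (adjusted p = 0.037). That call was absent without any single TIAR, stressed G3BP1 or unstressed input array, and without replicate 1 of stressed input. With G3BP1 beyond input, 9 were higher and 3 lower (17.0% and 2.24%). Among the members and genes above the median gene, 13.6% and 30.4% were higher and 4.55% and 3.49% lower, with medians of 0.12 and 0.33. The 9 higher members were RAD54L2 (0.99 ± 0.18), POLE4 (0.95 ± 0.24), POLD2 (0.86 ± 0.17), GINS2, ERCC1, POLD4, XRCC3, RAD51D and POLE3. Of these, RAD54L2, POLD2, RAD51D and POLE3 had been called lower in input after arsenite. The lower ones were XRCC4 (-1.37 ± 0.34, adjusted p = 0.012), RAD54B (-0.83 ± 0.27) and MCM4 (-0.51 ± 0.16). This balance turned with the setting. Without both arrays that stand apart it was 8 higher and 30 lower, with median centring 10 and 16 and with quantile normalization 9 and 19. The members' medians were then -0.35, -0.13 and -0.16 in that order, beside 0.05, -0.08 and -0.04 for all genes. The shares of all genes called in these settings were not counted, so these counts cannot be set against them.

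Between TIAR and G3BP1, 8 members had a more positive stress change with TIAR and 2 with G3BP1 (4.60% and 10.2% of all genes). These contrasts use no input array, though the shared estimate of spread draws on all 18 arrays. The 8 were XRCC4 (1.13 ± 0.34), RAD54B (1.10 ± 0.27), MSH6 (1.07 ± 0.26), ERCC5 (0.94 ± 0.30), PRIM1 (0.83 ± 0.13), MCM4 (0.77 ± 0.16), POLE (0.63 ± 0.13) and MCM5 (0.49 ± 0.14). RAD54L2 and RAD51D went the other way, at -0.68 ± 0.18 and -0.50 ± 0.13. MCM4 read 10.16, 10.07 and 9.92 with TIAR unstressed and 10.52, 10.33 and 10.44 stressed, against 11.65, 11.57 and 11.52 and 11.21, 11.25 and 11.10 with G3BP1. It rose in one precipitate and fell in the other, with no overlap in either. The 10 calls became 28 without replicate 3 of unstressed G3BP1, 17 without replicate 1 of stressed input, 5 without replicate 2 of unstressed TIAR and 6 without replicate 2 of stressed G3BP1. Without both arrays that stand apart 39 were higher and 3 lower, with a median of 0.42 beside -0.03 for all genes. The shares of all genes called in that setting were not counted, and 4.60% and 10.2% belong to the main fit. MCM4, MSH6, POLE, PRIM1 and RAD54B were called under every alternative.

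Other genes of the same pathways were counted from lists by name. Of 20 measured replication factors outside the 76, 11 were higher and 1 lower with G3BP1 than in unstressed input (23.7% and 15.6% of all genes), and 1 was higher and 11 lower with TIAR (20.2% and 23.4%). Between the unstressed precipitates 17 were lower with TIAR and 1 higher (30.2% and 19.2%), with a median of -1.09. TOP2B, a topoisomerase, stood 1.66 ± 0.29 above unstressed input with G3BP1, and GMNN, the licensing inhibitor geminin, at -2.03 ± 0.26 with TIAR. After arsenite RRM1, the large subunit of ribonucleotide reductase, rose with TIAR by 0.94 ± 0.17. Of these 20 genes, 2 rose and 1 fell with TIAR (6.15% and 7.15% of all genes), and 2 and 5 with G3BP1 (11.9% and 4.12%). In input 0 rose and 3 fell (2.08% and 13.5% of all genes; 1 higher at an unadjusted p under 0.05 in limma). Of 59 measured repair and checkpoint factors, 23 were higher and 8 lower with G3BP1 than in unstressed input, 5 and 24 with TIAR, and 8 and 33 with TIAR against G3BP1, beside the same shares of all genes. PRKDC, the DNA-dependent kinase of end joining, stood 2.29 ± 0.16 above input with G3BP1, and MAD2L2, a subunit of polymerase zeta, at -2.53 ± 0.18 with TIAR. After arsenite 2 of the 59 rose and 0 fell with TIAR (3 lower at an unadjusted p under 0.05 in limma), 5 rose and 1 fell with G3BP1, and 0 rose in input (0 unadjusted). The shares of all genes were those given for the replication factors. In input 9 fell (15.3% of the 59, beside 13.5% of all genes), and TOPBP1, an activator of the ATR kinase, fell by 0.97 ± 0.21.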

How the data were processed

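The authors deposited log2 signals of 18 exon arrays, 1 value per transcript cluster, made with RMA in Affymetrix Expression Console, per the submitters' processing notes. The sources used here do not give the software version, the probe-set level or whether all arrays were normalised together. Clusters were named from the platform annotation: 14432 had a single symbol, 2408 several and 5171 none, and the brightest cluster stood for each of 14232 genes. All 76 members matched a RefSeq symbol (GRCh38.p14).

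Group means of the 6 groups were fitted to all 22011 clusters with limma 3.58.1 in R 4.3.3 (lmFit, eBayes, 12 residual and 2.61 prior degrees of freedom, no filter). Moderated two-sided p-values were adjusted by Benjamini-Hochberg within each of 12 comparisons and called under 0.05. The script was tested on simulated data. The members and gene lists were chosen with earlier results of these data known. Up to 12 members per direction and comparison were named by size among those called, with PRIM1, XRCC4 and TP53BP1 always, the members of highest and lowest mean signal of each role, and up to 3 called genes per direction of the other lists. The text gives fewer of the latter. Alternatives were array weights, a replicate block, a robust prior with an intensity trend, a fit of only the compared groups, omission of the dimmer 50% of clusters, median centring, quantile normalization, the mean of all clusters of a gene, and leaving out each array. Leaving out both arrays that stand apart was added after seeing the data. A planned description by protein length was replaced by the RefSeq gene span, since no protein table was used here.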

Additional observations from a re-analysis of the deposited data

Results flagged for a closer look

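In each result here an interaction contrast (limma, Benjamini-Hochberg over all transcript clusters) passed the threshold, so that a stress change differed between fractions. With TIAR beyond input this held for POLD2, at 0.89, a call that failed under 15 of 27 alternative settings. With G3BP1 beyond input the difference was positive for RAD54L2 at 0.99, POLE4 at 0.95, POLD2 at 0.86, GINS2 at 0.84, ERCC1 at 0.74, POLD4 at 0.66, XRCC3 at 0.58, RAD51D at 0.54 and POLE3 at 0.47. Here RAD54L2, POLD2, RAD51D and POLE3 also fell in input after arsenite. The difference was negative for XRCC4 at -1.37, RAD54B at -0.83 and MCM4 at -0.51. GINS2, XRCC3, RAD54B and MCM4 each failed under 14 or more of the 27 alternative settings, while ERCC1, POLD2, POLE4, RAD51D, RAD54L2 and XRCC4 were called in this contrast under all of them.

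Between TIAR and G3BP1 the stress change was more positive with TIAR for XRCC4 at 1.13, RAD54B at 1.10, MSH6 at 1.07, ERCC5 at 0.94, PRIM1 at 0.83, MCM4 at 0.77, POLE at 0.63 and MCM5 at 0.49. It was more negative for RAD54L2 at -0.68 and RAD51D at -0.50. ERCC5 failed under 18 of 26 alternatives and XRCC4 under 13 of 27.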

How the results depend on the processing

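Counts of members called in the 6 comparisons of fractions stayed within 1.5 times their value under every alternative, and the other counts did not. For arsenite with TIAR the 9 calls became 15 with the compared groups alone, 15 with median centring, 21 with quantile normalization, 30 with array weights and 25 with both stray arrays left out (2 to 16 leaving out 1 array). For arsenite with G3BP1 the 10 became 2, 18, 27, 45 and 43 in that order of settings (5 to 26). For arsenite in input the 10 became 4 with the compared groups alone, 20 with quantile normalization, 26 with weights and 22 without the stray arrays (5 to 23). The 12 calls of G3BP1 beyond input became 26 with centring, 28 with quantile normalization, 38 with weights and 38 without both arrays. The 10 of TIAR against G3BP1 became 21, 26, 46 and 42 in those settings (5 to 28). The single call of TIAR beyond input became 0 with the compared groups alone and 0 with the replicate block, 2 with the dimmer 50% of clusters left out, 8 with weights and 2 without both arrays (0 to 2). The labels do not say that equal replicate numbers mark a shared culture, so the numbers were not taken as pairs. Correlations of the deviations of same-numbered replicates ran from -0.34 to 0.42. They were highest between the unstressed TIAR and G3BP1 precipitates, at 0.35, 0.01 and 0.42 for replicates 1, 2 and 3. The replicate block gave 6 calls for arsenite with TIAR, 8 with G3BP1 and 8 in input. It removed the call of 23 of 333 named results and turned no named value. The change of PRIM1 in input turned to -0.066 without replicate 2 and -0.047 without replicate 3 of stressed input, in a range of -0.066 to 0.14 leaving out 1 array. That of XRCC4 in input turned to 0.17 with array weights, 0.060 with quantile normalization, 0.20 without replicate 1 of stressed input and 0.20 without the stray arrays, with -0.31 to 0.20 leaving out 1 array. The cause of these moves was not tested. A dim signal cannot be told from background here, as no detection call was used, and 3 arrays per group limit the precision.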

Other observations

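Gene size was set beside the differences as a description, using the RefSeq span of each gene on a log10 scale. Over the 76 members, which share arrays and are not independent, the arsenite change with G3BP1 ran lower for longer genes, with Pearson's r of -0.38 and Spearman's rho of -0.32, beside -0.06 and -0.08 over 14205 genes. Without both arrays that stand apart the members gave -0.42 and -0.38. The difference between TIAR and input ran the other way, with r of 0.35 unstressed and 0.38 stressed, and all genes gave much the same values, 0.32 and 0.39. For G3BP1 against stressed input the members gave 0.05 and all genes 0.30.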
